A study of Mus musculus with 96 samples.

Results

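This comparison set 6 liver arrays against 6 skeletal muscle arrays, all from DBA/2J mice on the standard breeding diet. The 12 arrays were chosen by their labels as the standard-diet liver and muscle samples, out of 96 arrays in the series, and were normalized together. DBA/2J is an inbred laboratory strain. The whole series covered 8 tissues on 2 diets, a standard breeding diet and a high-fat diet, with 6 arrays per tissue and diet. The liver group was whole liver of 12-week-old mice after 6 weeks on the standard diet and a 2 h fast. The muscle group was the quadriceps of mice of the same strain, age, diet and fast, so the comparison also shares all of these between its groups. No allele, agent or transgene was named for either group, and the labels used here did not give the sex. The labels called the 6 samples of a tissue biological replicates but did not say which mouse, dissection day or chip an array came from. If liver and muscle of 1 mouse were both used, the labels did not tie them together.

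The liver secretes most proteins of blood plasma, makes bile acids and urea, releases glucose between meals and clears drugs and toxins. Skeletal muscle contracts by sliding actin thin filaments along myosin thick filaments inside sarcomeres, on a signal of calcium released from the sarcoplasmic reticulum. Fast muscle fibres draw on creatine phosphate and glycogen for quick work, while slow fibres rely more on mitochondrial oxidation.

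Total RNA of each sample was read on Illumina Mouse-6 BeadChips, which carry oligonucleotide probes and report 1 brightness per probe. Levels are log2 normalized intensities, which ran from 5.67 to 15.91 over the 12 arrays. The median probe read 6.57 in liver and 6.57 in muscle, so a level near that value was at the dim end, and no detection calls were used. Differences are liver minus muscle on the log2 scale, where 1 unit is a 2-fold change, and ± gives the standard error of the difference (n = 6 arrays per tissue). Dim levels compress differences, and probes differ in brightness, so levels were not ranked between genes. In whole tissue, fewer cells of a type and less RNA per cell cannot be told apart. Array number limits the precision. Correlations between arrays over the genes tested ran from 0.985 to 0.993 within liver, from 0.984 to 0.994 within muscle and from 0.654 to 0.699 between the tissues. Liver arrays were less bright at the upper end before normalization. Their upper quartile over their median of raw signal averaged 1.31 (1.27 to 1.35), against 1.37 (1.35 to 1.39) in muscle (two-sided exact permutation test, p = 0.00433). The part of this difference in the results was not tested.

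Muscle replicate 4 stood apart from the other muscle arrays in liver genes. Over the 100 genes with a symbol that were highest in liver over muscle, its median level was 7.53, against 6.51 to 6.57 on the other 5 muscle arrays. It was the highest muscle array for 99 of the 100. The 6 muscle arrays of the high-fat diet read 6.47 to 6.55 for the same genes. Apoa2, an apolipoprotein of high-density lipoprotein, read 11.84 on muscle replicate 4, against 6.73 to 7.22 on the other muscle arrays. Apoc3, an apolipoprotein that slows triglyceride clearance, read 9.15 there, against 6.05 to 6.46 on the others. Both stayed far below the liver arrays. Differences are also given without that array where it changed the fold, not the log2 value, by more than 1.5 times, and for Apoc3. The part of liver RNA in that muscle array was not tested. Without it, 922 genes and probes were at least 4-fold higher in liver and 830 at least 4-fold lower. Tissue markers went with the labels on all 12 arrays. The mean level of the plasma protein list ran from 12.64 to 12.78 over liver arrays, against 6.96 to 7.93 over muscle arrays. That of the myosin list ran from 6.19 to 6.25 in liver, against 10.96 to 11.88 in muscle. Liver replicate 2 stood apart in acute-phase genes, whose values are given with and without it in the paragraph on spread.

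Liver and muscle differed across most of what was tested. Of 18391 genes and unnamed probes tested, 5015 were higher in liver (27.3% of those tested) and 5395 were lower (29.3%) by limma at an adjusted p under 0.05. Asking also for a 4-fold difference left 922 higher in liver (5.01%) and 831 lower (4.52%). The median difference over all tested was 0.02. The shares of 27.3% higher and 29.3% lower are the background for each count of list members called below. Of the 1753 genes and probes at least 4-fold apart, 1752 had no overlap between the 6 liver and the 6 muscle arrays, whereas 41.9% of everything tested had none. The 1753 were called on these same arrays, so the lack of overlap is not separate evidence. For 262 of the 922 the muscle mean lay under the median probe, and for 247 of the 831 the liver mean did, so those read as close to dark in the other tissue. Of the genes named with a value below, 169 differed at least 4-fold, and their adjusted p from limma ran from 6.43e-23 to 0.000119. The largest adjusted p of any other named gene called different was 0.0437.

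**Figure D1:**
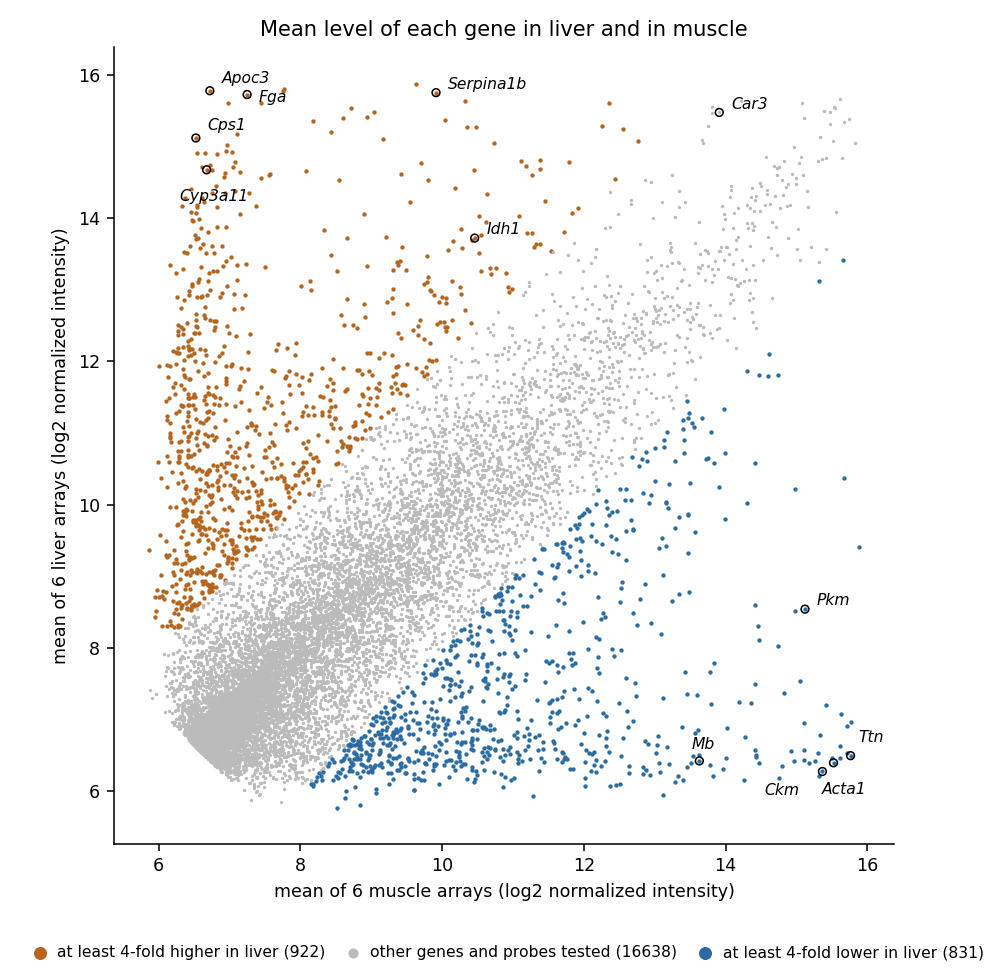
Mean log2 normalized intensity of each gene or unnamed probe tested, over 6 muscle arrays (horizontal axis) and over 6 liver arrays (vertical axis). Orange points are the 922 at least 4-fold higher in liver, blue points the 831 at least 4-fold lower and grey points the rest, with a few genes circled and named.

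The largest differences in the liver direction belonged to proteins that the liver exports and to enzymes of its own metabolism. Apoc3 read 15.7, 15.74 and 15.91 in liver (lowest, median and highest array), against 6.05, 6.27 and 9.15 in muscle. The groups did not overlap, and the difference was 9.05 ± 0.39, or 9.52 without muscle replicate 4. Cps1 read 14.85, 15.13 and 15.35 in liver (lowest, median and highest array), against 6.01, 6.17 and 8.38 in muscle. Cps1 fixes ammonia in the first step of the urea cycle, and its difference was 8.59 ± 0.30. Fga read 15.49, 15.73 and 15.86 in liver (lowest, median and highest array), against 6.59, 6.78 and 9.64 in muscle. Fga encodes the alpha chain of fibrinogen, the clot protein, and its difference was 8.47 ± 0.38. Cyp3a11 read 14.37, 14.72 and 15.03 in liver (lowest, median and highest array), against 6.36, 6.49 and 7.78 in muscle. Cyp3a11 is a cytochrome P450 that oxidizes many drugs, and its difference was 7.99 ± 0.20. No liver array of these 4 genes came near any muscle array. The other genes among the 15 largest were Apoc4 (8.63 ± 0.31), Ugt2b36 (8.26 ± 0.23), Hpx (8.15 ± 0.34), Itih4 (8.07 ± 0.26), Cyp2d9 (8.07 ± 0.27), Gsta3 (8.05 ± 0.32), Kng1 (8.03 ± 0.38), Cyp2c70 (8.03 ± 0.27), Apoa2 (8.01 ± 0.64), Mup3 (7.99 ± 0.49) and C9 (7.95 ± 0.22). Leaving out muscle replicate 4 widened the difference to 8.82 for Apoa2 and to 8.59 for Mup3, a major urinary protein. Mup, Cyp2d and Ugt2b genes have close relatives in the mouse, and their probes may read more than 1 of them.

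The largest differences in the muscle direction belonged to the contractile apparatus and its energy supply. Ttn read 6.3, 6.52 and 6.72 in liver (lowest, median and highest array), against 15.54, 15.83 and 15.91 in muscle. Ttn encodes titin, the giant spring of the sarcomere, and its difference was -9.27 ± 0.09. Its other probes gave differences from -8.75 to -0.26, all in the same direction. Acta1 read 6.27, 6.38 and 6.59 in liver (lowest, median and highest array), against 15.42, 15.54 and 15.63 in muscle. Acta1 is the actin of skeletal muscle thin filaments, with a difference of -9.13 ± 0.07. Ckm read 6.07, 6.31 and 6.34 in liver (lowest, median and highest array), against 15.29, 15.35 and 15.48 in muscle. Ckm is the muscle creatine kinase, which rebuilds ATP from creatine phosphate, with a difference of -9.09 ± 0.06. Atp2a1 read 6.11, 6.17 and 6.4 in liver (lowest, median and highest array), against 15.01, 15.37 and 15.43 in muscle. Atp2a1 is the calcium pump of fast fibres, with a difference of -9.1 ± 0.08. Each of these genes read at the dim end on every liver array and near the top of the scale on every muscle array. The others among the 15 largest were Pvalb (-9.18 ± 0.08), Cox6a2 (-9.15 ± 0.08), Tnni2 (-9.05 ± 0.07), Tpm2 (-8.98 ± 0.06), Tnnt3 (-8.84 ± 0.07), Eno3 (-8.8 ± 0.10), Myl1 (-8.78 ± 0.08), Cox8b (-8.78 ± 0.08), Myoz1 (-8.66 ± 0.09), Ckmt2 (-8.57 ± 0.08) and Pgam2 (-8.56 ± 0.09).

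**Figure D2:**
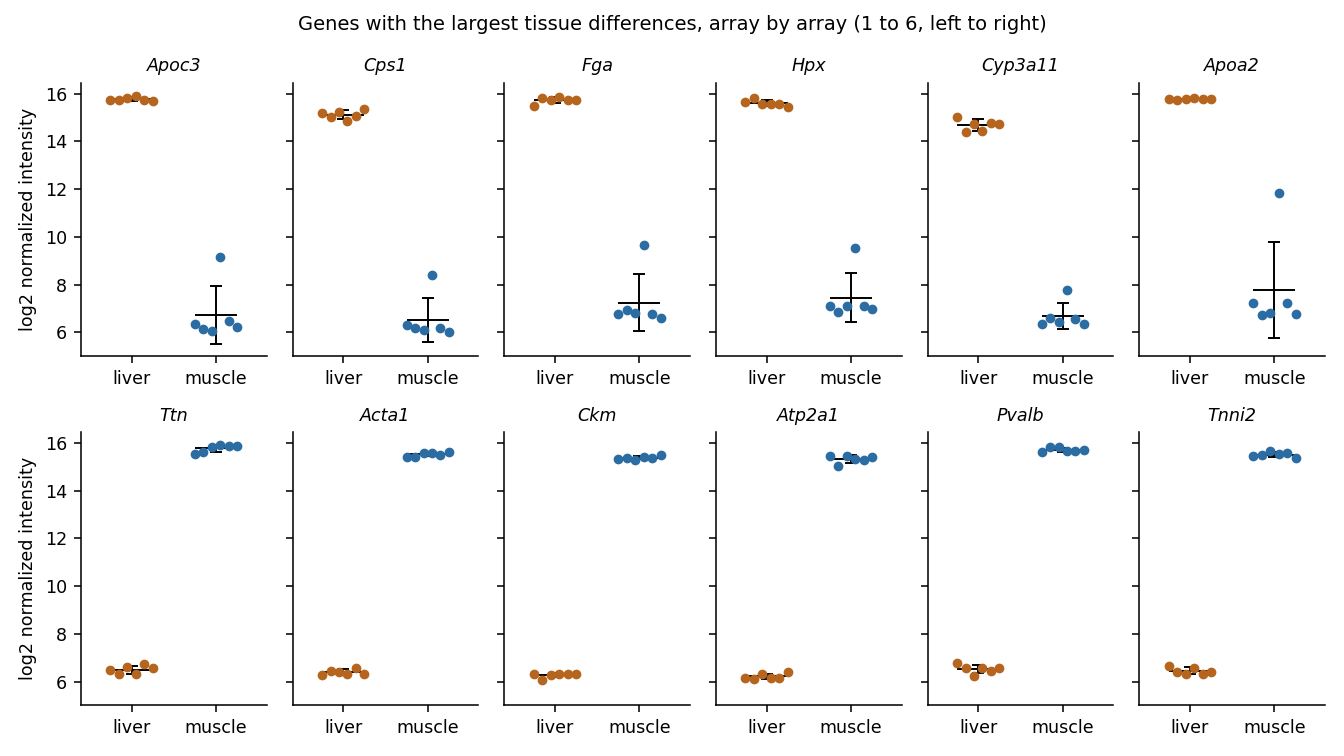
Log2 normalized intensity of 6 genes far higher in liver (upper row) and 6 far lower (lower row), with liver arrays left and muscle arrays right in each panel, points in array order, and a bar and whiskers for the mean and SD of 6 arrays. Muscle replicate 4 is the raised muscle point in the upper row, reading 11.84 for Apoa2.

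Promoter sequences of 4 of these genes are shown, chosen after the motif search, because they hold letters of motifs known to be bound by liver or muscle transcription factors. Each runs 5′ to 3′ on the gene's strand from 250 bases before to 50 after the RefSeq start site (GRCm38.p6), and capitals mark the motif letters. Fga lies at chr3:83025903-83026202 on the plus strand, Cyp2c70 at chr19:40187237-40187536 on the minus strand, Acta1 at chr8:123894726-123895025 on the minus strand and Ttn at chr2:76982498-76982797 on the minus strand. 
Fga: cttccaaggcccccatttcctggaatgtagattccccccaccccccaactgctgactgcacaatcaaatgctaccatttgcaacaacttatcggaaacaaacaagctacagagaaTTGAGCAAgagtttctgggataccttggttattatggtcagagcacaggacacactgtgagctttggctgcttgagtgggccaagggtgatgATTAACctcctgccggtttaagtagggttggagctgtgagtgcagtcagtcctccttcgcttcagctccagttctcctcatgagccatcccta
Cyp2c70: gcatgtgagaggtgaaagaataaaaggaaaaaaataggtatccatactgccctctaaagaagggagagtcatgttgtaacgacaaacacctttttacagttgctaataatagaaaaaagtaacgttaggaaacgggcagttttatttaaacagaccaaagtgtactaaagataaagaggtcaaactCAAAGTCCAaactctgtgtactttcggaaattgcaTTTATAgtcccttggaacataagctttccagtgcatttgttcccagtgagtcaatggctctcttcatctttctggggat
Acta1: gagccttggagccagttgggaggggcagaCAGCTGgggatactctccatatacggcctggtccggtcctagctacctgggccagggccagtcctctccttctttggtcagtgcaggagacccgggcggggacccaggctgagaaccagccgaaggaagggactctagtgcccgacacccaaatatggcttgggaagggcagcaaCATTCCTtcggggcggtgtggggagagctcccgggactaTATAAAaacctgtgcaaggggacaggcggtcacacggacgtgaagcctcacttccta
Ttn: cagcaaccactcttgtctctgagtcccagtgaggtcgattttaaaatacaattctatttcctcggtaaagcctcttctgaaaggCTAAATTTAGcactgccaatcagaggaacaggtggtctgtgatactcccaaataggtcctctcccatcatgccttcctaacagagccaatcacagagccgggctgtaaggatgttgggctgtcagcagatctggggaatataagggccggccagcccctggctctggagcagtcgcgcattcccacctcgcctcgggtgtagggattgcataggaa
In Fga the capitals mark TTGAGCAA, a C/EBP match starting at position -135, and ATTAAC, an HNF1 half-site match at -43, counted from the start site. In Cyp2c70 they mark CAAAGTCCA, an HNF4 match at -64, and TTTATA, the core promoter box read on the opposite strand, at -29. In Acta1 they mark the E-box CAGCTG at -221, the MCAT element CATTCCT at -46 and TATAAA at -7. In Ttn they mark a MEF2 match at -166. Promoters were in the RefSeq table for 12 of the 15 largest liver genes and 11 of the 15 largest muscle genes. Among these, Apoc4, Mup3 and Pvalb held none of the motif letters searched for in genes of their tissue. Itih4 and Cyp2d9 held only those of the core promoter box.

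The same letters were counted on both strands in all promoter windows of that length. HNF1 half-site letters GTTAAT were in 10.1% of 793 promoters of genes at least 4-fold higher in liver, in 4.32% of 717 promoters of genes at least 4-fold lower, and in 7.1% of all 32851 promoters. HNF4 letters CAAAGTCCA were in 1.64% of the liver-high promoters, 0.697% of the muscle-high promoters and 0.475% of all. C/EBP letters TTGCNNAA were in 14.4%, 6.97% and 10.8% of the same 3 sets in the same order. The MEF2 motif was counted only in a strict form of its consensus, with C as the first base and G as the last. Its shares can therefore miss sites of the wider, usual consensus. The strict form was in 1 of 793 liver-high promoters, in 14 of 717 muscle-high promoters (1.95%) and in 0.557% of all. E-box letters CAGCTG were in 17.8%, 22% and 16.3%, MCAT letters CATTCCT in 4.67%, 5.86% and 5.36%, and TATAAA in 14.5%, 10.7% and 13.6%. Over the 12207 promoters of all genes tested, the shares were 5.15% for HNF1, 0.483% for HNF4, 9.57% for C/EBP, 0.5% for MEF2, 16% for the E-box, 4.45% for MCAT and 9.5% for the core promoter box. For that box in muscle-high promoters, and for MCAT in liver-high promoters, the share lay above that of genes tested and below that of all promoters. These shares describe letters in a window and carry no test, and some genes have more than 1 window. Motifs were counted without regard to overlap with one another.

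Genes of secreted liver proteins were higher in liver almost without exception. Of 37 listed plasma protein genes, 29 had a named probe and 28 passed the filter on dim probes, of which all 28 were higher, against 27.3% of everything tested. Because a listed gene could pass the filter through its bright tissue alone, the median is given over all members with a probe, and was 5.84, against 0.01 over all genes and probes before the filter. Hpx, haemopexin, which carries free haem, read 15.45, 15.56 and 15.83 in liver (lowest, median and highest array), against 6.87, 7.09 and 9.55 in muscle. Ttr, transthyretin, which carries thyroid hormone and retinol-binding protein, differed by 7.89 ± 0.50, or 8.49 without muscle replicate 4. Itih4, a chain of the inter-alpha-inhibitor family, read 14.91, 15.11 and 15.59 in liver, against 6.69, 6.82 and 8.66 in muscle. Serpina1b and Serpina1d, copies of alpha-1-antitrypsin, differed by 5.84 ± 0.44 and 7.17 ± 0.38, and their probes may not tell the copies apart. Alb, albumin, had 1 named probe, which read only 8.06 to 8.79 in liver, against 5.89 to 6.24 in muscle.

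Clotting and complement genes followed the same direction. In coagulation, 18 of 18 tested members were higher in liver, with a median of 5.57 over 19 with a probe. F10, the protease that cleaves prothrombin, differed by 7.06 ± 0.12. F9, the factor lacking in haemophilia B, differed by 6.94 ± 0.12. Kng1, kininogen, the source of bradykinin, read 15.59, 15.81 and 15.91 in liver, against 6.94, 7.33 and 10.09 in muscle. In complement, 14 of 15 tested members were higher, with a median of 5.19. C9, which forms the pore of the membrane attack complex, read 14.27, 14.33 and 14.74 in liver, against 5.84, 6.34 and 7.71 in muscle. C8g, a further chain of that complex, differed by 7.06 ± 0.14. Cfi, the protease that inactivates C3b, differed by 6.85 ± 0.11, and Mbl1, a mannose-binding lectin, by 6.56 ± 0.13.

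All 14 of 14 apolipoprotein genes, which coat lipoprotein particles, were higher in liver, with a median of 6.25. Apoc4, a neighbour of Apoc1 and Apoe in the mouse genome, read 15.29, 15.62 and 15.81 in liver, against 6.51, 6.62 and 8.89 in muscle. Apom, which carries sphingosine-1-phosphate, differed by 7.62 ± 0.15. The 14 acute-phase genes, whose products rise in blood during inflammation, were all higher as well, with a median of 5.2. Crp, C-reactive protein, differed by 7.43 ± 0.20. Orm1, orosomucoid, differed by 6.77 ± 0.21.

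Nitrogen disposal and amino acid breakdown were higher in liver. All 9 of 9 tested urea cycle genes were higher (median 3.62 over 10 with a probe). Arg1, which splits arginine to urea, read 13.88, 14.12 and 14.22 in liver, against 6.01, 6.36 and 7.57 in muscle. Ass1, which joins citrulline to aspartate, differed by 6.57 ± 0.14. Asl, which follows it, differed by 5.06 ± 0.08. All 27 of 27 tested genes of amino acid breakdown were higher, with a median of 4.54. Mat1a, which makes S-adenosylmethionine, differed by 7.65 ± 0.24. Hpd and Hgd, successive enzymes of tyrosine breakdown, differed by 7.41 ± 0.20 and 7.11 ± 0.13. Ftcd, of histidine breakdown, differed by 6.48 ± 0.11.

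Genes that break down branched-chain amino acids, which muscle can transaminate, were mostly higher in liver. Of 15 tested genes, 11 were higher in liver (73.3%) and 3 lower (20%), against 27.3% and 29.3% of everything tested. Their median was 0.45. Bcat2, the mitochondrial transaminase that starts the pathway, read 8.06, 8.29 and 8.61 in liver, against 9.75, 10.23 and 10.43 in muscle, a difference of -1.89 ± 0.12. Bckdk, the kinase that switches the branched-chain dehydrogenase off, read 7.85, 7.93 and 8.21 in liver, against 11.05, 11.16 and 11.25 in muscle, a difference of -3.19 ± 0.07. Bckdhb, a subunit of that dehydrogenase, went the other way, with a difference of 2.35 ± 0.11. Dbt, its core subunit, differed by 1.55 ± 0.08, though its other probe gave 0.10.

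Glucose-releasing genes were mostly higher in liver. Of 14 tested, 12 were higher (85.7%) and 2 lower (14.3%), against 27.3% and 29.3% of everything tested. Their median was 2.62. G6pc, glucose-6-phosphatase, the last step of glucose release, read 12.23, 12.85 and 13.25 in liver, against 7.12, 7.16 and 7.26 in muscle, a difference of 5.57 ± 0.14. Khk, which phosphorylates fructose, differed by 4.16 ± 0.09, and Gckr, which holds glucokinase in the nucleus, by 3.78 ± 0.09. The 2 that were lower were Ppp1r3c, which ties a phosphatase to glycogen, at -2.66 ± 0.16, and Ugp2, which makes UDP-glucose for glycogen, at -1.54 ± 0.09. Ppp1r3c read high in both tissues, at 11.46, 11.76 and 12.24 in liver, against 14.14, 14.36 and 15.16 in muscle.

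Bile acid and detoxification genes were higher in liver throughout. All 17 of 17 tested bile acid genes were higher (median 3.77 over 19 with a probe). Slc10a1, which takes bile acids up from blood, read 14.29, 14.58 and 15.09 in liver, against 6.65, 6.77 and 7.93 in muscle, although its other probe differed by only 0.49. Cyp8b1, which makes cholic acid, differed by 7.33 ± 0.16. Cyp7b1, of the alternative pathway, differed by 7.18 ± 0.19, and Slc27a5, which joins bile acids to coenzyme A, by 6.71 ± 0.13. Cyp7a1, the rate-limiting enzyme of bile acid synthesis, differed by 5.01 ± 0.20. All 32 of 32 tested genes of drug and toxin metabolism were higher, with a median of 5.09. Gsta3, a glutathione transferase, read 14.72, 15.08 and 15.21 in liver, against 6.39, 6.62 and 8.96 in muscle. Cyp2d9 and Cyp2c70 are cytochrome P450 genes, and Cyp2c70 read 14.54, 14.77 and 14.93 in liver, against 6.22, 6.4 and 8.34 in muscle.

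**Figure D3:**
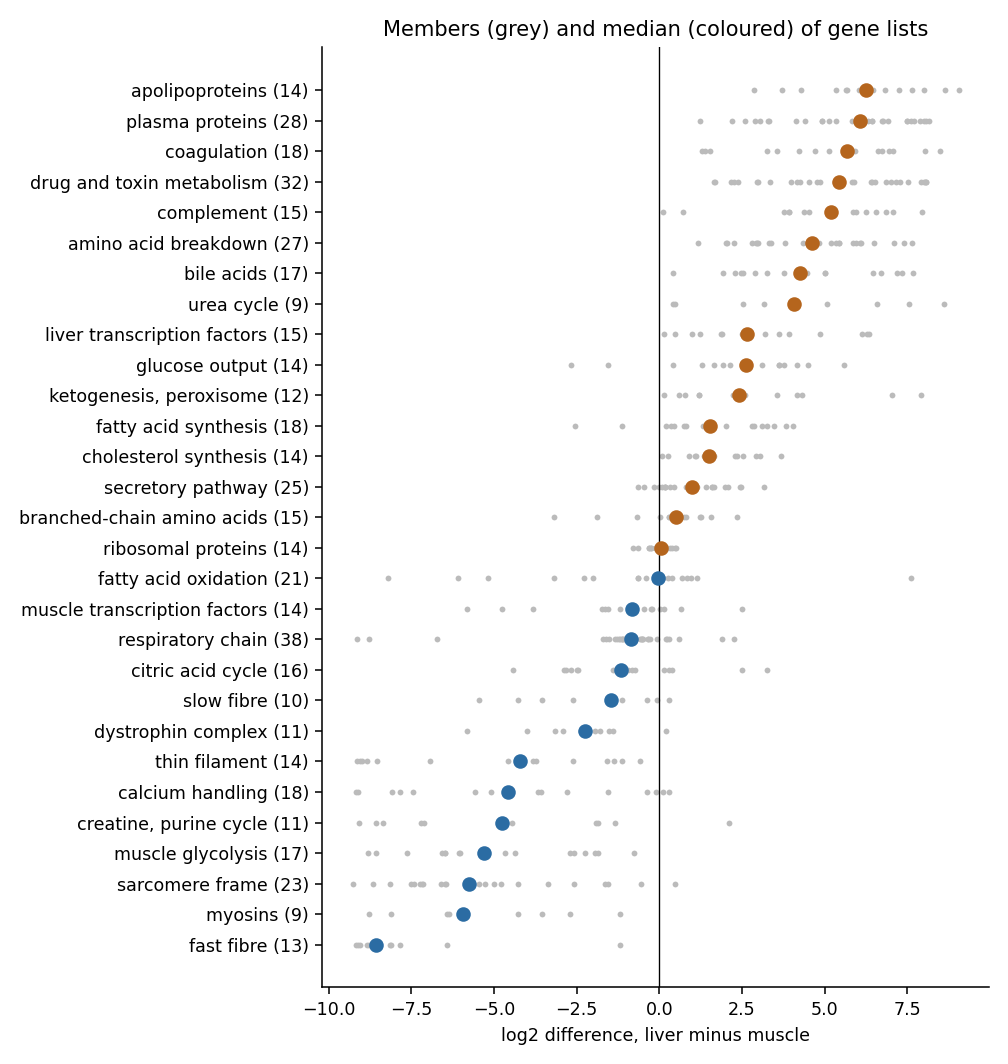
Log2 difference, liver minus muscle, of each tested member (grey) and the median of the tested members (coloured) for gene lists, with the number tested in brackets. The list medians run from 6.25 for apolipoproteins to -8.56 for fast-fibre genes.

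Genes that mark positions along the liver lobule were mostly higher in liver at both ends of the lobule. Of genes known from the zone around the central vein, 13 had a probe and 10 passed the filter. Of these 10, 8 were higher, and the median was 2.51 over all 13. Cyp1a2, which oxidizes caffeine, differed by 6.84 ± 0.12, and Cyp2e1, which oxidizes ethanol, by 5.31 ± 0.19. Gulo, of vitamin C synthesis, differed by 5.83 ± 0.11, and Slc1a2, a glutamate carrier, by 4.99 ± 0.07. Of genes known from the zone around the portal vein, all 12 of 12 tested were higher, among them Cyp2f2 at 7.5 ± 0.16 and Pck1, which starts glucose synthesis from oxaloacetate, at 1.65 ± 0.10. The Pck1 levels were 7.8, 8.01 and 8.31 in liver, against 6.23, 6.35 and 6.6 in muscle.

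Peroxisomal and ketone genes were mostly higher in liver. Of 12 tested, 11 were higher, with a median of 1.71 over 14 with a probe. Uox, urate oxidase, read 14.03, 14.26 and 14.63 in liver, against 5.93, 6.18 and 7.59 in muscle, a difference of 7.91 ± 0.21. Acaa1b, a peroxisomal thiolase, differed by 7.04 ± 0.19, and Pipox, an amino acid oxidase, by 4.31 ± 0.09. Bdh1, which interconverts the ketone bodies, differed by 4.16 ± 0.11. In a separate list of ketone use, 3 of 4 tested genes were higher and 1 lower, with a median of 0.19 over 5 with a probe. The lower gene was Oxct1, the enzyme that tissues other than liver use to burn ketone bodies. It read 8.12, 8.17 and 8.3 in liver, against 12.78, 13.12 and 13.33 in muscle, a difference of -4.89 ± 0.08. Acat1, a mitochondrial thiolase of ketone metabolism, differed by 0.58 ± 0.12, and the lactate carrier Slc16a3 by 0.19 ± 0.06.

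Transcription factors of each tissue were mostly higher in that tissue. Of 15 tested liver factors, 14 were higher in liver (median 2.58 over 16 with a probe). Nr1h4, the bile acid receptor FXR, read 12.82, 12.88 and 13 in liver, against 6.31, 6.48 and 6.94 in muscle. Foxa3, a forkhead factor, differed by 6.27 ± 0.12, Creb3l3, which acts in lipid metabolism, by 6.13 ± 0.11, and Hnf4a, a nuclear receptor that drives hepatocyte genes, by 4.87 ± 0.09. Of 14 tested muscle factors, 10 were lower in liver (71.4%) and 2 higher (14.3%), with a median of -0.26 over 19 with a probe. Of everything tested, 29.3% were lower and 27.3% higher. Mef2c, a partner of the myogenic factors, read 6.34, 6.56 and 6.66 in liver, against 11.82, 12.44 and 12.68 in muscle, a difference of -5.81 ± 0.11. Leaving out any muscle array put another probe of Mef2c in its place, with differences from -4.49 to -4.64. Myf6, the myogenic factor of adult fibres, differed by -4.76 ± 0.08, and Vgll2, a cofactor of TEAD proteins, by -3.83 ± 0.07. The 2 that were higher in liver were Prox1 at 2.49 ± 0.11, a factor that liver also uses, and Sox6 at 0.65 ± 0.08, whose other probes ran from -1.04 to 0.09. The myogenic factors Myod1, Myf5 and Myog had a mean over both tissues below the filter, so they were not tested, and were picked for mention after their values were seen.

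The secretory pathway and receptors of circulating hormones were on balance higher in liver. Of 25 tested genes of the endoplasmic reticulum and Golgi, 17 were higher (68%) and 2 lower (8%), with a median of 0.81. Of everything tested, 27.3% were higher and 29.3% lower. Pdia4 and Pdia3, which form disulphide bonds, differed by 3.17 ± 0.14 and 2.44 ± 0.13. Hsp90b1, an endoplasmic reticulum chaperone, differed by 2.48 ± 0.15, and Sec61a1, the channel for entering chains, by 2.07 ± 0.06. The 2 lower genes were Tmed10 at -0.66 ± 0.08 and Srp14 at -0.46 ± 0.11. Of 16 tested receptors, 13 were higher (81.2%) and 2 lower (12.5%), with a median of 0.78 over 19 with a probe. Asgr1 and Asgr2, the receptor that clears glycoproteins lacking sialic acid, differed by 7.17 ± 0.15 and 5.35 ± 0.10. Tfr2, a transferrin receptor, differed by 5.44 ± 0.08, and Egfr by 3.31 ± 0.14. The 2 lower were the thyroid hormone receptor Thra at -1.74 ± 0.10 and Igf1r, the receptor of insulin-like growth factor 1, at -0.79 ± 0.08.

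Contractile genes were lower in liver without a tested exception. All 9 of 9 myosin and myosin-binding genes were lower, against 29.3% of everything tested, with a median of -5.94. Myl1, the light chain of fast myosin, read 6.24, 6.4 and 6.55 in liver, against 15.05, 15.13 and 15.45 in muscle. Mybpc2, a fast myosin-binding protein, differed by -8.1 ± 0.08, and Mybpc1, its slow relative, by -6.36 ± 0.10. All 14 of 14 tested thin filament genes were lower, with a median of -3.77 over 16 with a probe. Tnni2 and Tnnt3, subunits of fast troponin, the calcium switch, differed by -9.05 ± 0.07 and -8.84 ± 0.07. Tpm2, a tropomyosin, read 6.49, 6.65 and 6.68 in liver, against 15.52, 15.59 and 15.76 in muscle.

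Genes of fast fibres and most genes of slow fibres were lower in liver. All 13 of 13 tested fast-fibre genes were lower in liver (median -8.56 over 13 with a probe), against 8 of 10 slow-fibre genes (median -1.37 over 11). Both lists read near the dim end in liver, and since probes differ in brightness the medians are not ranked. Myh4, the heavy chain of the fastest fibres, read 5.87, 6.15 and 6.25 in liver, against 12.14, 12.54 and 12.92 in muscle, a difference of -6.41 ± 0.12. Myh2, of fast oxidative fibres, differed by -5.94 ± 0.14, while the probe of Myh1 differed by only -1.18 ± 0.10. Tnnc2, fast troponin C, differed by -8.54 ± 0.07, and Tnnc1, the slow and cardiac form, by -1.37 ± 0.24. Myl2 and Myl3, light chains of slow and cardiac myosin, differed by -4.26 ± 0.24 and -3.54 ± 0.46. Tnnt1, slow troponin T, differed by -1.12 ± 0.21, Myoz2, which binds calcineurin, by -5.45 ± 0.10, and Casq2, the cardiac and slow calsequestrin, by -1.55 ± 0.09. Pln, phospholamban, which restrains the slow calcium pump, differed by -0.36 ± 0.06. Tpm3, slow tropomyosin, differed by -2.62 ± 0.15, but its other probes ran from -2 to 0.61 and another probe turned its direction, to 0.48 without muscle replicate 5 and 0.44 without muscle replicate 6.

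Sarcomere frame, calcium and energy genes went with the filaments. Of 23 tested genes of the Z disc, M band and titin system, 22 were lower in liver and 1 higher, with a median of -5.75. Myoz1, a Z-disc protein, read 6.26, 6.38 and 6.72 in liver, against 14.98, 15.07 and 15.38 in muscle. Actn3, the alpha-actinin of fast fibres, differed by -8.15 ± 0.07, and Tcap, which caps titin, by -7.52 ± 0.07. The member that was higher was Pdlim5 at 0.47 ± 0.08, whose other probe gave -0.26. Of 18 tested calcium-handling genes, 15 were lower and 3 not called (median -4.57). Pvalb, parvalbumin, the calcium buffer of fast fibres, read 6.23, 6.56 and 6.79 in liver, against 15.6, 15.69 and 15.83 in muscle. Ryr1, the calcium release channel, differed by -8.09 ± 0.06, and Casq1, which stores calcium, by -7.85 ± 0.09.

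In creatine and purine metabolism, 10 of 11 tested genes were lower in liver and 1 was higher. Ckmt2, the mitochondrial creatine kinase of muscle, differed by -8.57 ± 0.08, Ampd1, muscle AMP deaminase, by -8.36 ± 0.06, and Mb, myoglobin, which stores oxygen, by -7.21 ± 0.10. The exception was Gamt, which makes creatine. It read 12.64, 13.1 and 13.29 in liver, against 10.44, 11.06 and 11.16 in muscle, a difference of 2.1 ± 0.13. In the dystrophin complex, which ties the cytoskeleton to the matrix, 10 of 11 tested members were lower (median -1.94). Sgca and Sgcb, sarcoglycans, differed by -5.82 ± 0.08 and -4 ± 0.09, Dysf, which helps reseal the membrane, by -3.15 ± 0.10, and Cav3, muscle caveolin, by -2.9 ± 0.08. At the neuromuscular junction only 6 of 11 members with a probe passed the filter, and 4 were lower, with a median of -0.25 over all 11. Rapsn, which clusters acetylcholine receptors, differed by -3.63 ± 0.07, the receptor subunits Chrnb1 and Chrne by -2.89 ± 0.08 and -2.44 ± 0.09, and Dok7 by -0.70 ± 0.10.

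Muscle glycolysis genes were lower in liver in all 17 of 17 tested members, with a median of -4.51 over 20 with a probe. Eno3, muscle enolase, read 6.57, 7 and 7.26 in liver, against 15.69, 15.76 and 15.86 in muscle. Pgam2, muscle phosphoglycerate mutase, differed by -8.56 ± 0.09. Aldoa, muscle aldolase, differed by -5.3 ± 0.13, but liver kept a level of 9.98 to 10.76, against 15.43 to 15.86 in muscle. Gys1, muscle glycogen synthase, differed by -4.67 ± 0.07, while its other probes ran from -1.06 to 0.15, and Hk2, a hexokinase, differed by -6.05 ± 0.09.

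Many enzymes exist as a liver or general form and a muscle form, and the pairs diverged within 1 pathway step. Of 18 liver or general forms with a probe, 17 passed the filter, of which 15 were higher in liver and 2 were not called. Of 22 muscle forms with a probe, 21 passed, and all 21 were lower. Of everything tested, 27.3% were higher and 29.3% lower. A form could pass the filter through its bright tissue alone. The medians over all forms with a probe were 1.24 for the liver or general forms and -6.48 for the muscle forms. For glycogen phosphorylase, the difference was 3.63 ± 0.13 for the liver form Pygl and -7.62 ± 0.06 for the muscle form Pygm. For pyruvate kinase, it was 2.15 ± 0.11 for Pklr and -6.58 ± 0.07 for Pkm. For fructose bisphosphatase, it was 4.51 ± 0.11 for Fbp1 and -6.49 ± 0.07 for Fbp2. For the glucose carriers, it was 1.29 ± 0.10 for Slc2a2 and -4.35 ± 0.07 for Slc2a4, the carrier that answers insulin. For phosphofructokinase, it was 0.84 ± 0.12 for Pfkl and -6.47 ± 0.07 for Pfkm. Pfkl read 10.4, 10.43 and 10.48 in liver, against 9.25, 9.54 and 10.18 in muscle, so the general form differed far less than the muscle form.

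Regulatory and membrane pairs behaved in the same way, with a few exceptions. For the phosphorylase kinase alpha subunits, the difference was 0.64 ± 0.08 for Phka2 and -2.69 ± 0.15 for Phka1. For its gamma subunits, it was 0.89 ± 0.06 for Phkg2 and -6.03 ± 0.08 for Phkg1. For AMP deaminase, it was 1.19 ± 0.12 for Ampd2 and -8.36 ± 0.06 for Ampd1. The liver-rich glycogen targeting subunit Ppp1r3b differed by 3.6 ± 0.18. For carnitine palmitoyltransferase, which admits fatty acids to mitochondria, Cpt1b differed by -5.18 ± 0.08, while Cpt1a read 6.91, 7.17 and 7.38 in liver, against 6.9, 7.14 and 7.17 in muscle, and was not called different (0.04 ± 0.09, adjusted p = 0.709 by limma). For the calcium pumps, Atp2a2 was not called either (0.30 ± 0.13, adjusted p = 0.0653 by limma), but was called without muscle replicate 5 (0.42), liver replicate 2 (0.34) or liver replicate 3 (0.36). For acetyl-CoA carboxylase, the difference was 0.73 ± 0.23 for Acaca and -1.12 ± 0.10 for Acacb, the form at mitochondria. For the adenine nucleotide carriers, it was 2.25 ± 0.06 for Slc25a5 and -0.83 ± 0.07 for Slc25a4.

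**Figure D4:**
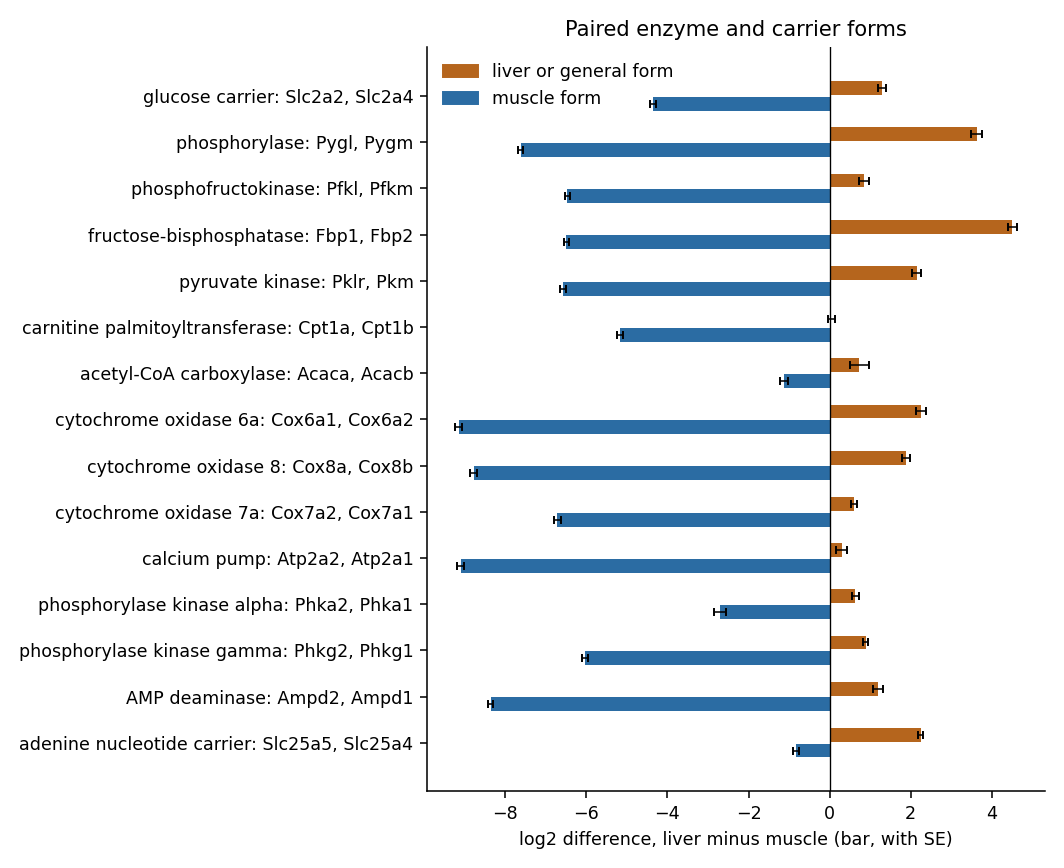
Log2 difference, liver minus muscle (bar), with its standard error from the fit (whisker, n = 6 arrays per tissue), for pairs of enzyme or carrier forms, the liver or general form in orange and the muscle form in blue. All blue bars point to muscle, and 13 of the 15 orange bars were called higher in liver, Cpt1a and Atp2a2 being the exceptions.

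Most genes of the respiratory chain and of the citric acid cycle were lower in liver. Of 38 tested respiratory chain genes, 30 were lower (78.9%) and 5 higher (13.2%), against 29.3% and 27.3% of everything tested. Their median was -0.82 over 40 with a probe. Cox6a2, Cox8b and Cox7a1, the muscle forms of cytochrome oxidase subunits, differed by -9.15 ± 0.08, -8.78 ± 0.08 and -6.71 ± 0.08. Their liver or general counterparts Cox6a1, Cox8a and Cox7a2 were higher in liver, by 2.25 ± 0.12, 1.88 ± 0.09 and 0.60 ± 0.08. Cox8a read 12.94, 13.12 and 13.23 in liver, against 10.87, 11.28 and 11.45 in muscle. In the citric acid cycle, 11 of 16 tested genes were lower (68.8%) and 3 higher (18.8%). Idh3a, Dlat and Cs, which act in mitochondria, differed by -4.43 ± 0.07, -2.88 ± 0.10 and -2.82 ± 0.08. Idh1, the cytosolic isocitrate dehydrogenase that makes NADPH, was higher at 3.26 ± 0.08. The others that were higher, Idh3b at 2.49 ± 0.12 and Mdh1 at 0.37 ± 0.09, had another probe at -0.05 and -0.16.

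Fatty acid oxidation genes differed in both directions, and most fatty acid synthesis genes were higher in liver. Of 21 tested oxidation genes, 7 were higher in liver, 9 lower and 5 not called, with a median of -0.02. These shares, 33.3% higher and 42.9% lower, stood beside 27.3% and 29.3% of everything tested. Fabp3, the fatty acid carrier of muscle and heart, read 7.04, 7.24 and 7.37 in liver, against 15.24, 15.4 and 15.6 in muscle, a difference of -8.21 ± 0.08. Pdk4, which shuts pyruvate out of oxidation, differed by -6.1 ± 0.10. Slc27a2, which activates long fatty acids, was higher at 7.6 ± 0.18, and Echs1 and Cpt2 were higher by 1.13 ± 0.08 and 0.95 ± 0.09. Of 18 tested synthesis genes, 14 were higher (77.8%) and 2 lower (11.1%), with a median of 1.45. The elongases Elovl3 and Elovl5 differed by 4.03 ± 0.21 and 3.47 ± 0.09, and the desaturases Fads2 and Fads1 by 3.83 ± 0.14 and 3.27 ± 0.12. Scd2, a desaturase, was lower at -2.56 ± 0.10, as was Acacb. Of 14 tested cholesterol genes, 13 were higher and 1 was not called, with a median of 1.36 over 16 with a probe. The larger differences were Cyp51 at 3.69 ± 0.10, Insig2, which restrains the pathway, at 3.05 ± 0.16, Nsdhl at 2.93 ± 0.09 and Lss at 2.51 ± 0.12.

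Genes of general function and of the daily clock showed small differences. Of 14 tested ribosomal protein genes, 7 were higher in liver (50%) and 6 lower (42.9%), against 27.3% and 29.3% of everything tested. None of them differed by 4-fold, and the median was 0.08. Rplp0 and Rpl13 differed by -0.80 ± 0.08 and -0.63 ± 0.07, Rpl10 and Rps3 by 0.51 ± 0.12 and 0.48 ± 0.14. Of 12 tested clock genes, 6 were lower in liver (50%, against 29.3% of everything tested) and 6 were not called. Tef, an output factor, differed by -1.23 ± 0.19, Nr1d1, a repressor of the loop, by -1.02 ± 0.10, and Per1 by -0.62 ± 0.14. Dbp, another output factor, read 9.52, 12.05 and 12.95 in liver, against 11.88, 12.49 and 13.15 in muscle, and was not called (adjusted p = 0.227 by limma).

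Secreted factors linked to muscle were mixed, and 10 of 17 with a probe passed the filter. Of these 10, 7 were lower in liver (70%) and 2 higher (20%), against 29.3% and 27.3% of everything tested. The median was -0.11 over all 17. Igf2, insulin-like growth factor 2, differed by -4.29 ± 0.12, Fndc5, the precursor of irisin, by -3.59 ± 0.10, and Fstl1 by -3.4 ± 0.09. Inhbe, an activin chain, and Fgf21, a hormone of fasting, were higher, by 3 ± 0.14 and 1.23 ± 0.31. Fgf21 read 7.33, 8.62 and 9.47 in liver, against 6.61, 7.04 and 8.16 in muscle.

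Markers of other cell types differed between the whole tissues too. Of 12 tested macrophage genes, 8 were higher in liver (66.7%) and 1 lower (8.33%). Of everything tested, 27.3% were higher and 29.3% lower. Vsig4 and Clec4f, found on Kupffer cells, the macrophages of liver, differed by 4.6 ± 0.08 and 3.41 ± 0.07. Folr2, found on other resident macrophages as well, differed by -2.55 ± 0.14. Of 14 endothelial genes, 5 were higher (35.7%) and 8 lower (57.1%), so the share higher was near that of everything tested. Clec4g, a lectin of liver sinusoids, was higher at 6.05 ± 0.12, with another probe at 0.18, and the sinusoidal receptor Stab2 at 0.90 ± 0.19. Pecam1, Cdh5 and Flt1, found on endothelium in general, were lower, at -1.25 ± 0.11, -1.33 ± 0.11 and -1.65 ± 0.07.

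Of 15 genes of stellate cells and fibroblasts, 11 were lower in liver (73.3%) and 4 higher (26.7%), against 29.3% and 27.3% of everything tested. Col1a1, a chain of collagen I, read 6.55, 6.79 and 6.95 in liver, against 11.9, 12.18 and 12.6 in muscle, a difference of -5.43 ± 0.11. Col3a1 differed by -0.83 ± 0.08 and Des, desmin, which muscle fibres also make, by -4.28 ± 0.07. Lrat, which stores retinol in stellate cells, was higher at 1.24 ± 0.12, and Reln at 3.14 ± 0.10, with another probe at -0.03. All 5 of 5 smooth muscle genes were lower, among them Acta2 at -3.97 ± 0.08 and Smtn at -4.07 ± 0.08. Nerve-sheath genes with a probe numbered 5, of which 3 passed the filter and all 3 were lower (median -0.94 over all 5). Among them Mbp and Pmp22 differed by -2.71 ± 0.08 and -2.96 ± 0.08. Bile duct genes with a probe also numbered 5, of which 3 passed the filter and all 3 were higher (median 0.20 over all 5). Among them Krt7 and Sox9 differed by 0.48 ± 0.11 and 0.64 ± 0.15. In 5 tested red cell genes, 2 were higher (40%), 2 lower (40%) and 1 not called, against 27.3% and 29.3% of everything tested. Alas2, of haem synthesis in red cells, differed by 4.37 ± 0.09, while the globin gene Hba-a1 differed by -0.45 ± 0.12. Of 8 tested exocrine pancreas genes, Cela1 and Amy2a5 were higher (25%), by 5.76 ± 0.12 and 2.71 ± 0.12. This share was near the 27.3% of everything tested. Whether the Amy2a5 probe also reads other amylase genes was not tested. The other 6, such as Cpb1 (0.01 ± 0.06), were not called.

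Most adipocyte genes were lower in liver. Of 10 tested, 7 were lower (70%) and 1 higher (10%), against 29.3% and 27.3% of everything tested. Adipoq, adiponectin, read 6.92, 7.06 and 7.15 in liver, against 9.56, 10.33 and 10.9 in muscle, a difference of -3.23 ± 0.19. Lep, leptin, read 6.05, 6.17 and 6.29 in liver, against 7.4, 8.13 and 8.63 in muscle, a difference of -1.93 ± 0.15. Cidec and Plin1, coats of fat droplets, differed by -1.98 ± 0.17 and -0.71 ± 0.13, Fabp4 by -0.32 ± 0.07, and Retn was not called (0.04 ± 0.06). The exception was Car3, a carbonic anhydrase that adipocytes, liver and slow muscle share, at 1.56 ± 0.11. The mean level of the adipocyte list ran from 7.65 to 7.74 over liver arrays, against 8.35 to 9.21 over muscle arrays. Ucp1 and Cidea, known from brown fat, were also read in muscle. Ucp1, the uncoupling protein, differed by -4.44 ± 0.45, and Cidea by -3.37 ± 0.35, with liver at 6.06 to 6.8 for Cidea. The share of fat RNA in the muscle samples was not tested.

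Replicates of 1 tissue were far closer to each other than to the other tissue, but some gene groups varied inside a tissue. In liver, replicate 2 was the highest array for several acute-phase genes. Saa1, serum amyloid A, read 15.48 there, against 11.86 to 12.51 on the other liver arrays. Saa2 read 14.35 there, against 9.16 to 9.77. Cxcl1, a chemokine that draws neutrophils, read 14.17, against 10.31 to 11.01, and Lcn2, which binds iron carriers of bacteria, read 11.35, against 7.79 to 8.54. The liver-muscle difference was 6.42 ± 0.45 for Saa1 and 3.5 ± 0.64 for Saa2, and 5.86 and 2.69 without that array. For Cxcl1 it was 3.81 ± 0.49 with it and 3.19 without, and for Lcn2 1.56 ± 0.45 and 1.02. The metallothioneins Mt1 and Mt2, which bind zinc, differed by 1.29 ± 0.52 and 1.25 ± 0.44, and by 0.88 and 0.72 without liver replicate 2, and Mt1 was then no longer called (adjusted p = 0.106 by limma). Mt1 also lost its call without any 1 of liver replicates 3 to 6 or muscle replicates 2 to 5, with differences from 1.22 to 1.27. Other liver genes that varied were Dbp, named above, Nnmt, which methylates nicotinamide, at 6.91, 7.76 and 10.18, and Cyp4a14, which oxidizes fatty acids at their far end, at 6.82, 8.63 and 10.33.

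In muscle, genes of slow fibres and of fat varied between arrays. Myl3 read 7.97, 9.9 and 11.61, Myl2 9.36, 10.54 and 11.49 and Tnnt1 8.68, 9.16 and 10.37 over the 6 muscle arrays, each highest on replicate 5. Ucp1 ran over 9.61, 10.64 and 12.58, Cidea over 8.74, 9.47 and 11.18 and Cidec over 8.01, 8.58 and 9.21 on the muscle arrays, each with replicates 3, 4 and 5 above the rest or, for Cidec, with 3 and 4 highest. Cish, which damps cytokine and growth hormone signals, read 12.82, 11.96 and 12.98 on muscle replicates 2, 5 and 6, against 8.96, 9.75 and 9.61 on replicates 1, 3 and 4. Fbxw5, a subunit of a ubiquitin ligase, read 11.52, 11.56 and 11.54 on muscle replicates 1, 3 and 5, against 6.74, 6.62 and 6.53 on the other muscle arrays. It ran from 6.76 to 10.62 over liver arrays, and no difference between the tissues was called.

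**Figure D5:**
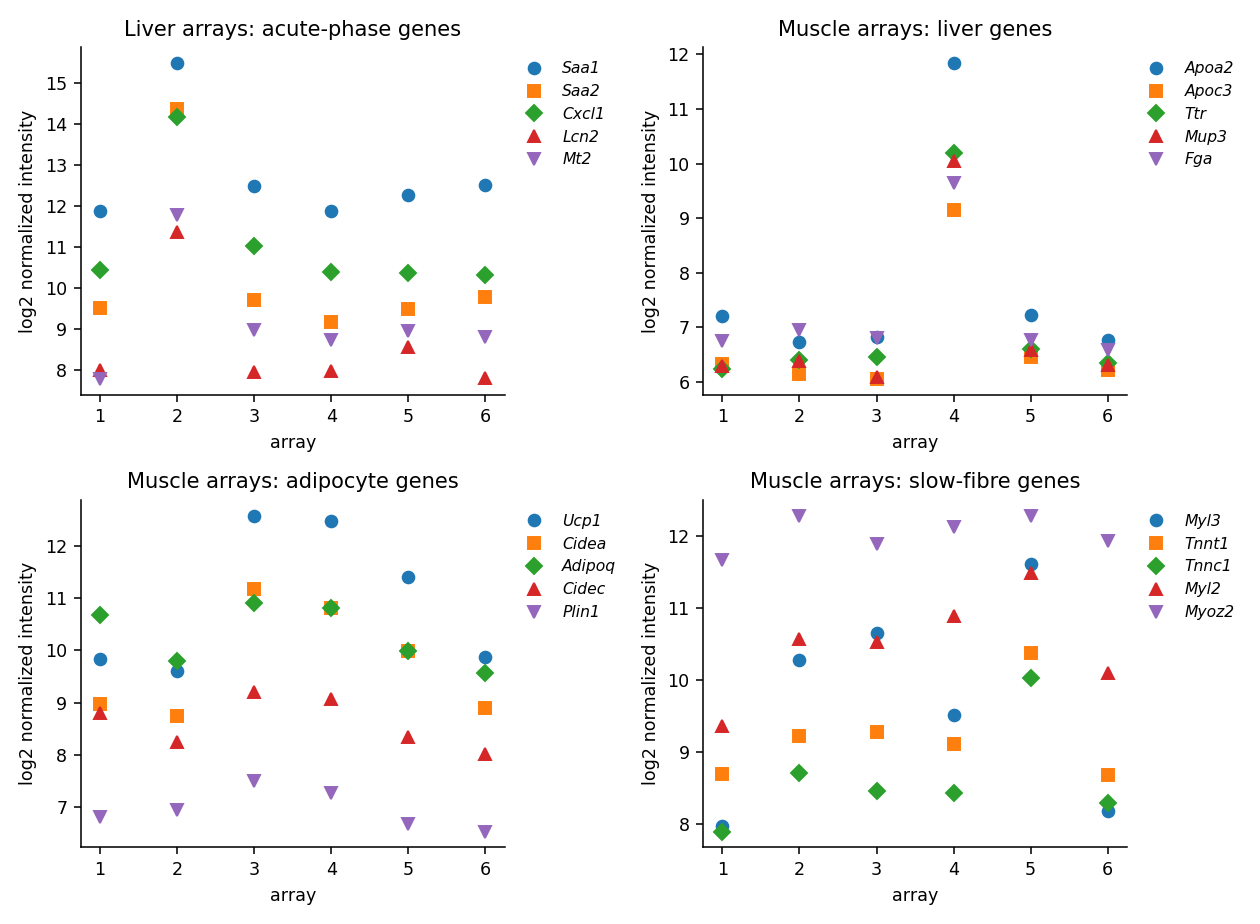
Log2 normalized intensity on each of the 6 arrays of a tissue for acute-phase genes in liver, liver genes in muscle, adipocyte genes in muscle and slow-fibre genes in muscle, 1 marker per gene. Liver array 2 is high for Saa1 (15.48), muscle array 4 for Apoa2 (11.84) and muscle array 5 for Tnnt1 (10.37).

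The 12 liver and muscle arrays of the high-fat diet repeated the comparison in other samples, and 55.4% of 18405 genes and probes were called there. Of 10307 called on the standard diet and tested again, 9068 were called in the same direction and 6 in the opposite one. All 1752 tested again of those at least 4-fold apart were called in the same direction, and 1624 were again at least 4-fold apart. The tissue difference itself changed with diet for 126 (0.685% of those tested) at an adjusted p under 0.05 by limma's interaction term. With the 24 arrays of both diets normalized together, Lep differed by -3.91 on the high-fat diet, against -1.86 on the standard diet. Cyp2e1 differed by 7.28 on the high-fat diet, against 5.35 on the standard diet, and Cyp4a14 by 4.46, against 2.3. Fads2 differed by 5.25 on the high-fat diet, against 3.76 on the standard diet, and Elovl3 by 2.55, against 3.94. These genes were picked from the 126 after their values were seen.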

How the data were processed

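Each array held total RNA of 1 sample. The authors deposited non-normalized signal intensity for 46632 probes and a second table of log2 values, which matched a quantile normalization of all arrays to within 0.00191 and served as an alternative. The scanner software and background handling are not given in the sources used here. Of the probes, 29976 had 1 gene symbol, 10 several and 16646 none. Intensities of the 12 arrays were background-corrected with limma 3.58.1 (normexp, offset 50, R 4.3.3), put on the log2 scale and quantile normalized. Probes above the median mean were kept, with the brightest probe per gene (18391 rows, 11933 with a symbol). Two-sided limma tests were adjusted by Benjamini-Hochberg over all of them. The fit was checked on simulated data. The gene lists were chosen with earlier results of these data known. Genes named were taken from the 15 largest differences each way, the members of the isozyme, fibre, lobule and cell-type lists, the 4 largest and up to 3 opposing members of other lists, and the 10 most variable genes per tissue. Because nothing ties arrays to separate mice by name, p-values measure the spread between these samples. Alternatives were 3 other ways to prepare the intensities, the deposited log2 values, joint normalization with the high-fat arrays, other filters, all probes, array weights, a replicate block and each array left out. Promoters came from RefSeq (GRCm38.p6).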

Additional observations from a re-analysis of the deposited data

Results flagged for a closer look

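Among 466 groups of 6 arrays, 1 per gene and tissue, 72 had a highest or lowest array set apart from the other 5 by more than Dixon's critical value. Chance gives about 1 in 20 groups that were not chosen for their spread. The genes checked include the 10 with the largest SD in each tissue, so the 72 are not set against that rate.

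By Dixon's value, muscle replicate 4 was set above the other 5 muscle arrays in 35 checked genes that were at least 4-fold higher in liver. On that array these included Apoa2 at 11.84, Apoc3 at 9.15, Apoc4 at 8.89, Apom at 7.33 and Arg1 at 7.57. The same array had Asgr1 at 6.94, Ass1 at 8.62, C8g at 8.09, C9 at 7.71 and Cps1 at 8.38. It also had Crp at 7.62, Cyp2c70 at 8.34, Cyp2d9 at 8.46, Cyp3a11 at 7.78 and Cyp7b1 at 7.2. Further values there were Cyp8b1 at 7.66, F10 at 7.43, F9 at 6.97, Fga at 9.64 and Ftcd at 7.26. On that array these included Gsta3 at 8.96, Hpd at 8.13, Hpx at 9.55, Itih4 at 8.66 and Kng1 at 10.09. The same array had Mat1a at 8.5, Mup3 at 10.04, Serpina1b at 12.68, Serpina1d at 10.58 and Slc10a1 at 7.93. It also had Slc27a2 at 7.71, Slc27a5 at 7.59, Ttr at 10.19, Ugt2b36 at 8.08 and Uox at 7.59. The part of liver RNA in these values was not tested.

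By the same rule, liver replicate 2 was set above the other 5 liver arrays in 6 checked genes of inflammation or metal binding. Its values there were Cxcl1 at 14.17, Lcn2 at 11.35, Mt2 at 11.78, Orm1 at 15.86 and Saa1 at 15.48. It also had Saa2 at 14.35. Other values set apart, above or below the rest of their tissue, were spread over several replicates. Liver replicate 1 had Cyp2e1 at 15.21, Tcap at 7.28 and Tpm2 at 6.49. Liver replicate 2 had Ckm at 6.07, Pln at 6.35 and Rpl13 at 14.39. Liver replicate 3 had Dysf at 7.19. Liver replicate 4 had Col3a1 at 6.67 and Sec61a1 at 10.19. Liver replicate 5 had Alb at 8.79. Liver replicate 6 had Asgr1 at 13, Fads1 at 13.21 and Reln at 10.96. Muscle replicate 1 had Fbp2 at 13.58, Phka2 at 8.32 and Slc2a4 at 10.62. Muscle replicate 2 had Cpt1a at 6.9 and Hnf4a at 7.1. Muscle replicate 4 had Igf1r at 8.08, Pgam2 at 15.5 and Tmed10 at 11.74. Muscle replicate 5 had Atp2a2 at 11, Lcn2 at 7.49 and Tnnt1 at 10.37. Muscle replicate 6 had Acat1 at 9.53, Car3 at 13.32, Hk2 at 13.52, Idh3a at 12.59 and Phkg2 at 8.48. Muscle replicate 6 had Rapsn at 9.92 and Sgcb at 10.32.

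The difference between the tissues itself differed between the diets, by the interaction term of limma, for 8 of the genes named. The change, high-fat minus standard diet on the log2 scale, was 1.93 for Cyp2e1, 2.16 for Cyp4a14, -1.39 for Elovl3, 0.69 for Elovl5, 1 for Fads1, 1.48 for Fads2, -2.05 for Lep and 0.74 for Pklr.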

How the results depend on the processing

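Every count of called genes stayed within 1.5 times its value under the alternatives tried. The 10410 calls became 10592 with the authors' deposited log2 values, 10363 without background correction, 10396 with an offset of 16, 9489 under median scaling, 10371 with the high-fat arrays normalized in, 10920 without the filter on dim probes, 7776 with the filter at the 75th percentile, 13032 over all probes and 10565 with array weights. The share of calls higher in liver was 48.2%, and 39.9% under median scaling. The calls at least 4-fold higher in liver were 813 without background correction and 1048 with an offset of 16, and those lower were 708 and 1016. Leaving out each array in turn gave 9985 to 10345 calls, 914 to 937 at least 4-fold higher and 820 to 842 at least 4-fold lower. A replicate block gave 10370 calls. The correlation of same-numbered arrays after removing tissue means ran from -0.00805 to 0.239. Of 6 arrays, 1 correlated best with its own number. These values cannot tell whether a shared number marks 1 mouse, because liver and muscle of 1 mouse need not vary together. The block ended the call of Mt1 and brought in Dbp (-0.71). On the high-fat diet the block gave 9979 calls, against 10196, and the interaction called 107 with the deposited log2 values, against 126. Tpm3 turned its direction with the deposited log2 values (0.52) and without muscle replicate 5 (0.48) or 6 (0.44), where another of its probes was the brightest, and leaving out each array gave -2.68 to 0.48. Over all single-gene values under alternatives, 4848 kept direction and call, 20 lost the call and 4 gained it. Of 1049 list medians over tested members under alternatives, 927 stayed within 1 SD between arrays and 122 moved further, most of them under another background correction, offset or filter or with the deposited log2 values, and the cause was not tested. The medians of ribosomal genes under median scaling (-0.04, against 0.04) and of exocrine pancreas genes without the filter (-0.02, against 0.03) changed sign. Acaca, Acat1, Mdh1, Rps3, Slc16a3, Sox9, Stab2 and Mt2 were no longer called under median scaling, and the cause was not tested. Signals near the dim end limit what can be said of genes read below the filter, such as Fabp1, Glul and Mstn, named after their values were seen.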
